A study of Mus musculus with 10 samples.

Results

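Eya1, Pdlim3 and Sfrp1 were followed here as 3 genes that mark the Sonic hedgehog (SHH) subgroup of human medulloblastoma, a tumour of the cerebellum. The rule that chose them names the genes and uses no measured value, although it was written with earlier results of these data known. All 3 were among the 39769 gene symbols of the table, and all 3 were among the 15617 genes with enough counts to be tested. RNA was sequenced from 10 mouse libraries. The 3 libraries labelled NKP came from medulloblastoma of mice with the genotype Nestin-Cre Kmt2dfl/+ Ptch+/-, all at 4 months of age. The 3 labelled AKP came from medulloblastoma with the genotype AtohI-Cre Kmt2dfl/+ Ptch+/-, 2 of them taken at 2 months (AKP 1, AKP 2) and 1 at 4 months (AKP 3). The 4 labelled Ptch came from cerebellum of Ptch+/- mice, 2 of them taken at 4 months (Ptch 1, Ptch 2) and 2 at 2 months (Ptch 3, Ptch 4). Every mouse thus carried the heterozygous Ptch allele. Tissue, Cre driver and the floxed Kmt2d allele all differ at once between the Ptch group and the others, so their parts in a difference cannot be told apart. Because no label ties a library to its own animal, the p-values rest on library-to-library spread, which may be technical.

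SHH released by Purkinje cells binds the receptor Ptch1 on granule neuron precursors and frees Smo, which lets Gli transcription factors switch on growth genes. Loss of Ptch1 leaves this pathway on and is a cause of SHH medulloblastoma. Nestin-Cre acts in neural stem and progenitor cells, and Atoh1-Cre in granule neuron precursors of the rhombic lip. Eya1 encodes a transcriptional co-activator with phosphatase activity that works with homeobox proteins. Pdlim3 encodes a PDZ-LIM protein that binds alpha-actinin. Sfrp1 encodes a secreted protein that binds Wnt ligands and dampens Wnt signalling, and it is induced by hedgehog signalling in cultured cells. In a human panel of subgroup genes these stand beside HHIP, a decoy receptor for hedgehog ligands, and ATOH1, the transcription factor that defines granule neuron precursors.

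On the GRCm38.p6 build, Eya1 lies on chromosome 1 (14168953 to 14311035), Pdlim3 on chromosome 8 (45885487 to 45919635) and Sfrp1 on chromosome 8 (23411383 to 23449632). All are protein-coding. In the GENCODE vM21 annotation Eya1 lies on the minus strand and 2 other annotated genes overlap it, a miRNA on the opposite strand and an unclassified transcript on the same strand. Pdlim3 and Sfrp1, both on the plus strand, overlap no other gene. The libraries do not mark strand, and overlap was taken over whole gene spans, introns included. Whether reads of the overlapping genes entered the count of Eya1 was not tested.

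The promoter of Pdlim3 is shown because Pdlim3 was the 1 of 3 members with an entry in the RefSeq promoter table of GRCm38.p6. The window spans 250 bases before and 50 bases after the gene start, chr8:45885237-45885536 on the plus strand, and the capitals mark the letters CAGCTG, an E-box form bound by Atoh1.

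Pdlim3: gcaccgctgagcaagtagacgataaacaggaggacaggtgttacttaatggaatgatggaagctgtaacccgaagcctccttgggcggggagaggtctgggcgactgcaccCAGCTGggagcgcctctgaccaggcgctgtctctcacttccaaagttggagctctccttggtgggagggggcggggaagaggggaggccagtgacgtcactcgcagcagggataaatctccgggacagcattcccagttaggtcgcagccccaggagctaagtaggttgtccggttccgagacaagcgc

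The CAGCTG match begins 139 bases before the start of Pdlim3, and 16.3% of 32851 promoter windows of the same length held these letters on either strand. The Gli consensus GACCACCCA, found on either strand in 0.253% of windows, was not in the Pdlim3 window, nor was its shorter core CCACCC (31.5% of windows) or the TCF/LEF core CTTTGA (16.0%). Among the other SHH panel genes with an entry, Hhip held CCACCC 158 bases before its start, and Atoh1 held CTTTGA 148 and 110 bases before its start. These are matches of letters only.

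Several libraries stood apart or went against their labels. Library totals ran from 12300430 to 19348991 counts. Kmt2d, the floxed gene, was at 33.2 to 58.0 CPM (counts scaled to library size) in libraries labelled NKP, 34.3 to 43.6 CPM in those labelled AKP and 52.6 to 68.4 CPM in those labelled Ptch. The highest NKP value, in the library labelled NKP 3, lay inside the Ptch range. A gene-level count need not show the loss of a floxed exon. Sex-linked genes disagreed with the labelled sex of 4 libraries (Ptch 1, Ptch 3, NKP 3 and AKP 3). A sum of 15 mitosis genes was at 14.2, 12.05 and 66.3 CPM in the libraries labelled NKP 1 to 3, 12.0005, 299 and 243 CPM in AKP 1 to 3, and 470.4, 465, 155 and 144 CPM in Ptch 1 to 4. The libraries labelled NKP 1, NKP 2 and AKP 1 were thus lowest, and Ptch 1 and Ptch 2 highest. All 15 mitosis genes were below 0 in NKP against Ptch (median log2 fold change -3.28) and in AKP against Ptch (median -0.69), and none passed. Of 10 granule neuron precursor genes, 9 were below 0 in each (medians -2.38 and -0.54), and none passed. Markers of normal cerebellum were present under both tissue labels. Purkinje cell genes summed to 5280 to 6803 CPM in NKP, 3770 to 6801 CPM in AKP and 4235 to 5697 CPM in Ptch. In pairwise comparison of counts, NKP 1 and AKP 1, which carry different labels, differed slightly less (chi-square per degree of freedom 3.44 over genes) than Ptch 1 and Ptch 2 (3.46), and NKP 3 lay close to Ptch 4 (3.81). Whether any library's label was exchanged was not tested, and if so the folds below would not compare tumour with cerebellum. Each fold below compares libraries as they are labelled.

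Sfrp1 was the member that varied most. The libraries labelled NKP 1 to 3 had 6.62, 8.95 and 32.0 CPM. Those labelled AKP 1 to 3 had 8.14, 91.8 and 71.4 CPM. Those labelled Ptch 1 to 4 had 148, 150.4, 58.2 and 58.1 CPM. All libraries labelled NKP lay below all labelled Ptch, while AKP held both very low and high values and overlapped both other groups. The highest library, Ptch 2, had 22.7 times the level of the lowest, NKP 1. The range of Sfrp1 on the log2 scale was larger than that of 98.4% of tested genes. For Eya1 that share was 83.2% and for Pdlim3 61.1%. Sfrp1 counts ran from 81 to 2912. Exact Poisson 95% intervals, which cover counting error only, were 5.26 to 8.23 CPM for NKP 1 and 145 to 156 CPM for Ptch 2. In whole tissue, fewer cells of a type and less RNA per cell cannot be told apart.

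**Figure D1:**
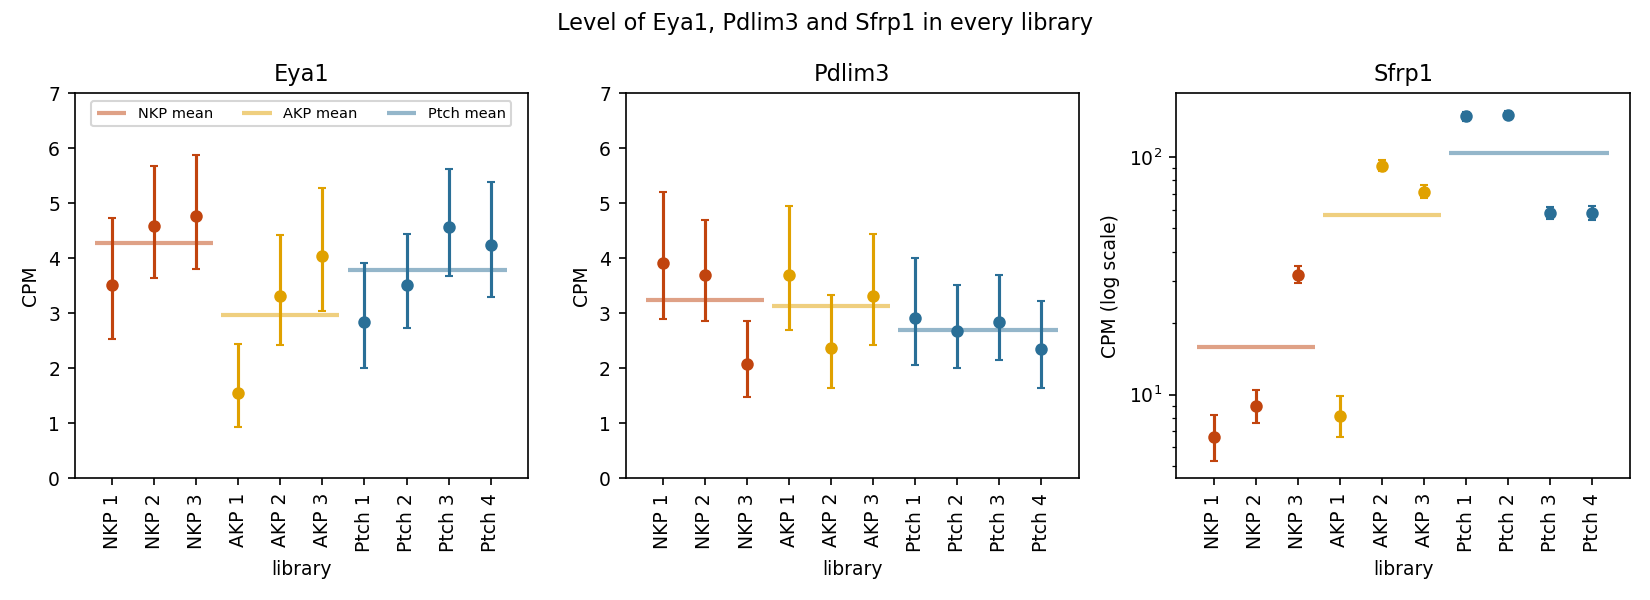
Level of Eya1, Pdlim3 and Sfrp1 in CPM in each library, with Sfrp1 on a log axis; points are libraries, bars exact Poisson 95% intervals of the count and horizontal lines group means. Sfrp1 in the libraries labelled NKP 1, NKP 2 and AKP 1 sits between 6.62 and 8.95 CPM, below the other 7, while the groups overlap for Eya1 and Pdlim3.

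NKP was set against Ptch to ask how Nestin-Cre tumours with 1 floxed Kmt2d copy, as labelled, differ from cerebellum of Ptch mice. Sfrp1 averaged 15.9 ± 14.0 CPM in NKP (SD, n = 3) and 103.7 ± 52.6 CPM in Ptch (SD, n = 4). The log2 fold change was -2.69 (SE 0.953), with a 95% interval of -4.92 to -0.45 that is not adjusted for the number of genes. The difference did not pass the test over all genes, with an edgeR unadjusted p of 0.0249 and adjusted p of 0.238. DESeq2 gave -2.71 with an adjusted p of 0.0564. No gene passed in this comparison by edgeR (0% of 15617), where 2660 had an unadjusted p under 0.05, and DESeq2 called 404. Sfrp1 was the 1 of 3 members whose NKP and Ptch ranges did not overlap, and 15.9% of tested genes did the same in either direction.

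The libraries labelled NKP 1 and NKP 2 held the 2 lowest NKP levels of Sfrp1, and the size of the difference rested on them and on the pair Ptch 1 and Ptch 2. Without the library labelled NKP 3 the log2 fold change was -3.71 (edgeR adjusted p = 0.150). Without NKP 1, NKP 2 and AKP 1, a choice made for their mitosis sums after the data were seen, it was -1.68. That choice left NKP 3 as the only NKP library. The libraries left out were also the lowest in Sfrp1, so a smaller difference had to follow. Without Ptch 1 and Ptch 2, the 2 libraries highest in Sfrp1, the log2 fold change was -1.86 (adjusted p = 0.990). The sign was negative in all 24 alternatives run, from -3.73 to -1.68, and the smallest adjusted p was that of DESeq2.

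For libraries labelled as Atoh1-Cre tumours, the question is the same. Sfrp1 averaged 57.1 ± 43.6 CPM in AKP (SD, n = 3) and 103.7 ± 52.6 CPM in Ptch (SD, n = 4), a log2 fold change of -0.85 (SE 0.869, 95% interval -2.89 to 1.18, edgeR adjusted p = 0.595). The 2 groups overlapped. The value was -0.34 without the library labelled AKP 1, -1.37 without AKP 2, and -0.02 without Ptch 1 and Ptch 2. None of the 3 members passed here, where 5.68% of tested genes did and 24.8% had ranges that did not overlap.

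Between the Cre drivers, Sfrp1 had a log2 fold change of 1.83 in AKP against NKP (SE 0.969, 95% interval -0.44 to 4.10, edgeR adjusted p = 0.372). The AKP values of 8.14, 91.8 and 71.4 CPM lay on either side of the NKP values of 6.62, 8.95 and 32.0 CPM. Without the library labelled NKP 3 the value was 2.87 (adjusted p = 0.437), and without AKP 2 it was 1.31 (adjusted p = 0.798). Age differs along with the Cre driver, since all NKP libraries but only AKP 3 among AKP were taken at 4 months. The value was 2.51 with age as a covariate (adjusted p = 0.236). In age-matched libraries, where AKP 3 is the only AKP library, it was 2.14. None of the 3 members passed, against 1 of 15617 genes called (0.0064%) and 16.2% with ranges that did not overlap.

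Age moved with Sfrp1 inside the Ptch group. The 4-month libraries Ptch 1 and Ptch 2 had 148 and 150.4 CPM, and the 2-month libraries Ptch 3 and Ptch 4 had 58.2 and 58.1 CPM. At 4 months, the NKP libraries (6.62, 8.95 and 32.0 CPM) and the AKP library (71.4 CPM) lay below both Ptch libraries. At 2 months, the AKP libraries (8.14 and 91.8 CPM) lay on either side of the Ptch pair. In age-matched libraries the log2 fold change was -3.21 in NKP against Ptch at 4 months (edgeR adjusted p = 0.138). It was -0.21 in AKP against Ptch at 2 months (adjusted p = 0.951). The 4-month Ptch libraries are the pair with the highest mitosis sums, so age and that pair cannot be told apart.

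**Figure D2:**
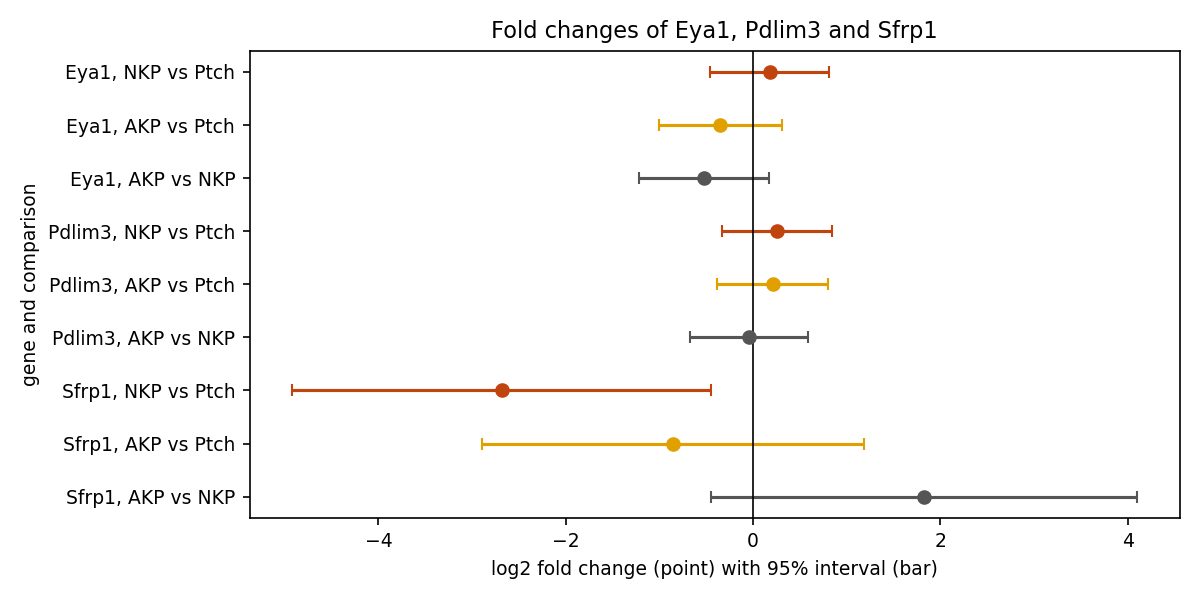
Log2 fold changes of the 3 genes in each comparison (points) with 95% intervals from the edgeR fit, not adjusted for the number of genes (bars). The interval of Sfrp1 in NKP against Ptch, -4.92 to -0.45, lies below 0, and the other 8 cross it.

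Eya1 was low in every library. It was at 3.52, 4.59 and 4.76 CPM in the libraries labelled NKP 1 to 3, 1.56, 3.32 and 4.05 CPM in AKP 1 to 3, and 2.85, 3.51, 4.58 and 4.25 CPM in Ptch 1 to 4. All groups overlapped, and the lowest value was that of AKP 1, where 19 counts gave an exact Poisson 95% interval of 0.940 to 2.44 CPM. Group means were 4.29 ± 0.675 CPM in NKP (SD, n = 3), 2.98 ± 1.28 CPM in AKP (SD, n = 3) and 3.80 ± 0.774 CPM in Ptch (SD, n = 4). The log2 fold change was 0.18 in NKP against Ptch (SE 0.294, 95% interval -0.46 to 0.81, edgeR adjusted p = 0.790). In AKP against Ptch it was -0.35 (SE 0.304, 95% interval -1.01 to 0.31, adjusted p = 0.515), and in AKP against NKP it was -0.52 (SE 0.323, 95% interval -1.22 to 0.17, adjusted p = 0.406). Without the library labelled AKP 1 these 2 values were -0.05 and -0.23, and without AKP 3 they were -0.63 and -0.81. In NKP against Ptch the value ran from 0.0613 (without Ptch 1) to 0.295 (without NKP 1) when any 1 library was left out.

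Pdlim3 was also low and varied least of the 3. It was at 3.93, 3.70 and 2.08 CPM in the libraries labelled NKP 1 to 3, 3.70, 2.38 and 3.32 CPM in AKP 1 to 3, and 2.92, 2.69, 2.85 and 2.35 CPM in Ptch 1 to 4. The 3 highest libraries were NKP 1, NKP 2 and AKP 1, the same that were lowest for Sfrp1, and the lowest was NKP 3. Group means were 3.24 ± 1.01 CPM in NKP (SD, n = 3), 3.13 ± 0.678 CPM in AKP (SD, n = 3) and 2.70 ± 0.257 CPM in Ptch (SD, n = 4). The log2 fold change was 0.25 in NKP against Ptch (SE 0.272, 95% interval -0.33 to 0.84, edgeR adjusted p = 0.654). It was 0.21 in AKP against Ptch (SE 0.275, 95% interval -0.38 to 0.80, adjusted p = 0.679) and -0.04 in AKP against NKP (SE 0.293, 95% interval -0.67 to 0.59, adjusted p = 0.954). In NKP against Ptch it was 0.0983 without NKP 1, 0.136 without NKP 2 and 0.497 without NKP 3. In AKP against Ptch it was 0.0759 without AKP 1 and 0.377 without AKP 2. With 33 to 67 counts a library, the counting intervals of all Pdlim3 values except those of NKP 1, NKP 2 and NKP 3 overlapped one another, and NKP 3 (1.47 to 2.86 CPM) lay below NKP 1 (2.89 to 5.204 CPM) and NKP 2 (2.87 to 4.70 CPM).

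The summed markers of mural and smooth muscle cells, in which actin-binding proteins are abundant, were highest in the same 3 libraries as Pdlim3. The 10 listed genes summed to 169, 195 and 145 CPM in the libraries labelled NKP 1 to 3, 181, 137 and 149.7 CPM in AKP 1 to 3, and 92.7, 99.97, 136 and 135 CPM in Ptch 1 to 4. Rgs5, the largest part of the sum, was highest in NKP 1, NKP 2 and AKP 1, as were Acta2, Tagln, Myh11 and Pdgfrb. Each of Kcnj8, Abcc9, Cnn1, Des and Notch3 had another library among its 3 highest. The sum was highest in NKP 1, NKP 2 and AKP 1, as were the Purkinje cell, interneuron, astrocyte, endothelial and meningeal sums, so this is not particular to mural cells. The orders differed elsewhere: NKP 3 was lowest for Pdlim3 and not for the mural sum, and Ptch 1 was lowest for the mural sum and 5th highest for Pdlim3. No listed gene was at 0 in any library. In AKP against Ptch 1 of the 10 rose, Tagln (transgelin, an actin-binding protein of smooth muscle), by 1.10 on the log2 scale (SE 0.250, edgeR adjusted p = 0.0315), where 5.68% of all tested genes were called. It was 0.73 (adjusted p = 0.142) without Ptch 1 and Ptch 2, and 0.76 (adjusted p = 0.171) in age-matched libraries. Its adjusted p was 0.115 without AKP 2, 0.0839 without AKP 3, 0.0793 without Ptch 1 and 0.0756 without Ptch 2. The part of these cells in Pdlim3 was not tested.

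Per kilobase of the longest annotated transcript, and as a mean over the 10 libraries, Sfrp1 had 14.5 CPM per kb, Eya1 0.847 and Pdlim3 0.846. The median of tested genes with a known length was 6.38 CPM per kb. Sfrp1 thus lay above 70.7% of these genes and Eya1 and Pdlim3 above 14.1% of them. Hhip had 0.929 and Atoh1 2.78 CPM per kb.

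The other 2 genes of the SHH panel also did not pass. Atoh1 had 0, 0.221 and 3.67 CPM in the libraries labelled NKP 1 to 3, 0, 5.77 and 5.45 CPM in AKP 1 to 3, and 14.8, 16.4, 6.92 and 5.71 CPM in Ptch 1 to 4. It was lowest in the same 3 libraries as Sfrp1, and a count of 0 (no more than 3 counts) allows up to 0.245 CPM in NKP 1 and 0.247 CPM in AKP 1. Hhip had 5.32, 9.95 and 5.26 CPM in NKP 1 to 3, 6.74, 8.87 and 12.01 CPM in AKP 1 to 3, and 9.39, 12.04, 8.09 and 6.59 CPM in Ptch 1 to 4. Its groups overlapped, with a log2 fold change of -0.40 in NKP against Ptch (SE 0.283, edgeR adjusted p = 0.487) and 0.03 in AKP against Ptch (SE 0.280, adjusted p = 0.964). Of the 5 panel genes, 3 were below 0 in NKP against Ptch and 3 in AKP against Ptch, with medians of -0.40 and -0.35. Over all tested genes these medians were 0.01 and -0.02.

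Some genes of the hedgehog pathway had the same low libraries as Sfrp1, and others did not. The transcription factors Gli1 and Gli2 were lowest in NKP 1, NKP 2 and AKP 1, with Gli1 at 10.3, 11.99 and 10.8 CPM there and at 21.3 to 45.0 CPM in Ptch. Ptch1 had 85.6, 100.3 and 110.6 CPM in NKP 1 to 3, 90.7, 55.5 and 65.5 CPM in AKP 1 to 3, and 74.0, 77.1, 100.5 and 103.3 CPM in Ptch 1 to 4. It was lowest in AKP 2 and AKP 3, where Sfrp1 was high.

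Of the 13 hedgehog genes listed, 11 were below 0 in NKP against Ptch (median log2 fold change -0.43) and 12 in AKP against Ptch (median -0.41). None passed in NKP against Ptch, where Ccnd1, a D-type cyclin, had -0.54 and the signal transducer Smo -0.43 (edgeR adjusted p = 0.218 for each). In AKP against Ptch 1 of 13 fell, the co-receptor Boc, by 0.44 on the log2 scale (SE 0.111, adjusted p = 0.0416), against a background of 5.68%. Its adjusted p was 0.155 without AKP 2, 0.115 without AKP 3, 0.0528 without NKP 2, 0.112 without Ptch 1, 0.106 without Ptch 2 and 0.0637 without Ptch 4, with log2 fold changes from -0.50 to -0.37 when any 1 library was left out. The value was -0.26 (adjusted p = 0.292) in age-matched libraries and -0.25 (adjusted p = 0.247) without Ptch 1 and Ptch 2. In AKP against NKP none passed and the smallest p values were those of Ptch1 (-0.49) and the co-receptor Cdon (-0.54).

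**Figure D3:**
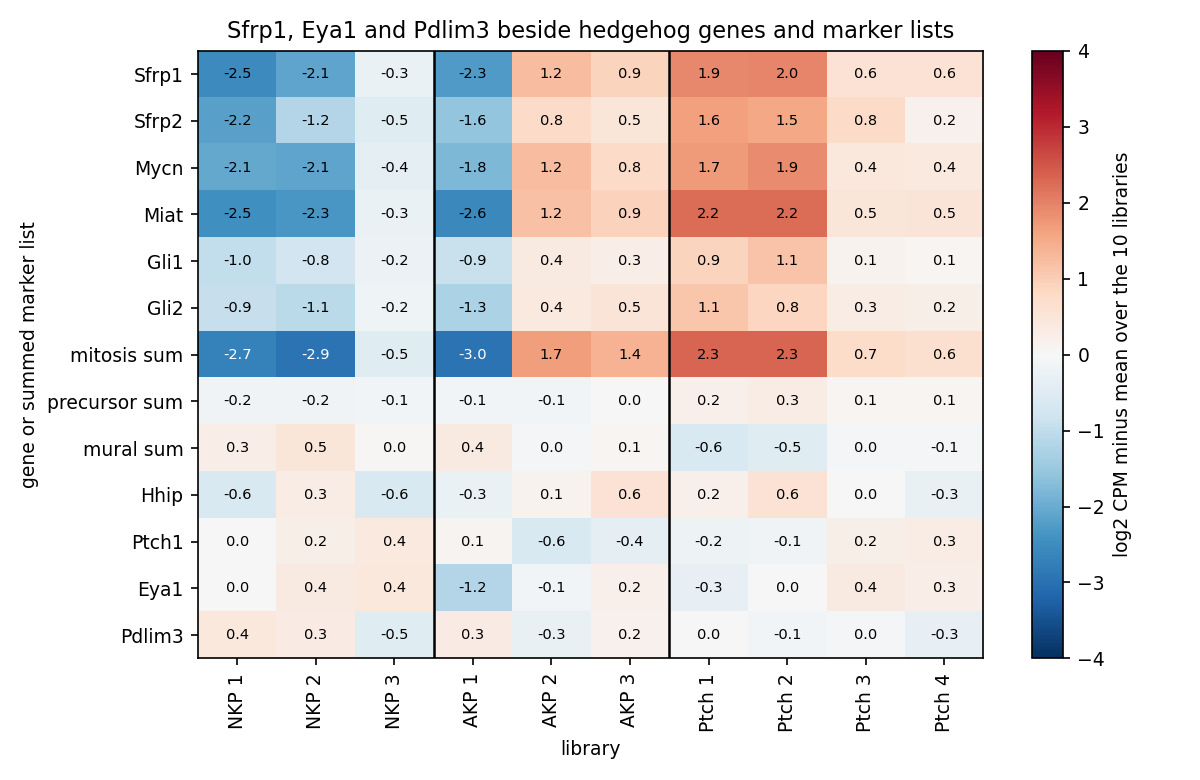
Log2 CPM of each gene or summed marker list minus its mean over the 10 libraries, with libraries in columns and lines between the groups. Sfrp1, Sfrp2, Mycn, Miat, Gli1, Gli2 and the mitosis sum are lowest in NKP 1, NKP 2 and AKP 1, while Eya1, Pdlim3, Hhip and Ptch1 do not follow that order.

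The tested genes most like Sfrp1 across the libraries were found by Pearson's r of log2 CPM, among 11024 genes with a mean count of at least 100. They were Ckap2l, a mitotic spindle gene (r = 0.997), Uhrf1, which maintains DNA methylation at replication (0.997), Miat, a long non-coding RNA (0.997), Cenpf, a kinetochore gene (0.997), and Mycn, a transcription factor of granule neuron precursors (0.994). Spearman's rank correlation for these was 0.988, 0.976, 0.976, 0.988 and 0.964. Over the 7 libraries other than NKP 1, NKP 2 and AKP 1, r was 0.985, 0.985, 0.993, 0.990 and 0.996. These values are a description of 10 libraries that fall into sets, and no p is given. Mycn had 4.33, 4.15 and 13.7 CPM in NKP 1 to 3, 5.18, 42.1 and 30.4 CPM in AKP 1 to 3, and 58.9, 66.6, 23.9 and 23.5 CPM in Ptch 1 to 4. The 7 highest libraries were in the same order for Mycn as for Sfrp1, and the 3 lowest, NKP 1, NKP 2 and AKP 1, were not. The part of dividing cells in the level of Sfrp1 was not tested.

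By the same measure among 11025 genes, Eya1 was most like Jade2 (r = 0.912), Rwdd4a (0.868), Samd4 (0.855), Uri1 (0.849) and Ccdc141 (0.848). Pdlim3 was most like Ubb-ps (0.944), Lancl2 (0.892), Dele1 (0.880), Mtmr2 (0.879) and Zfp830 (0.878). Ubb-ps is a pseudogene close to the ubiquitin gene Ubb, so its counts are uncertain. Spearman's rank correlation ran from 0.770 to 0.939 for Eya1 and 0.830 to 0.952 for Pdlim3. For Rwdd4a, r with Eya1 was 0.567 without the 2 libraries farthest from the median of Eya1. No gene stood on the lists of more than 1 member. Between Pdlim3 and Sfrp1, r was -0.63 over the 10 libraries and 0.50 over the 7 other than NKP 1, NKP 2 and AKP 1. In the same 2 sets it was 0.21 and -0.89 between Eya1 and Sfrp1, and -0.38 and -0.31 between Eya1 and Pdlim3. Eya1 and Pdlim3 rest on 19 to 90 and 33 to 67 counts a library, which limits what these values can show.

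Among genes related to Sfrp1, Sfrp2, another secreted Wnt antagonist, came closest to its pattern. Sfrp2 had 1.14, 2.27 and 3.67 CPM in NKP 1 to 3, 1.73, 8.80 and 7.22 CPM in AKP 1 to 3, and 16.0, 15.0, 8.70 and 5.83 CPM in Ptch 1 to 4. NKP lay below Ptch without overlap, and 15.9% of tested genes had no overlap here in either direction. The log2 fold change of -2.24 (SE 0.604) did not pass (edgeR adjusted p = 0.218). Sfrp5 was at 1.56, 10.7 and 7.74 CPM in AKP 1 to 3, with 1.55 to 3.72 CPM in NKP and 2.73 to 5.17 CPM in Ptch. Frzb held between 3.68 and 5.05 CPM in all libraries. Of the 9 antagonists listed, 7 were tested, and none passed in any comparison.

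Wnt feedback targets, which report on pathway output, also gave no calls. Axin2 had a log2 fold change of -0.41 in NKP against Ptch (edgeR adjusted p = 0.230) and -0.43 in AKP against Ptch (adjusted p = 0.101), and Nkd1 had -0.99 in NKP against Ptch (adjusted p = 0.236). The 10 listed targets had medians of 0.05 in NKP against Ptch, -0.02 in AKP against Ptch and -0.08 in AKP against NKP. Of 10 Frizzled receptors, to which Wnt ligands bind, 1 fell in AKP against Ptch, Fzd1, by 0.43 (SE 0.118, adjusted p = 0.0487), where 5.68% of all tested genes were called. Its call ended in 18 of 24 alternatives, and the value was -0.22 (adjusted p = 0.413) in age-matched libraries. Leaving out any 1 library other than AKP 1 or NKP 1 ended it, with adjusted p from 0.0599 to 0.178. Fzd2 had -1.39 in NKP against Ptch (adjusted p = 0.218). It stood at 4.25, 3.87 and 6.79 CPM in NKP 1 to 3 and 8.37 to 18.9 CPM in Ptch.

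The Eya family and its listed partners gave no calls among 9 tested of 11 listed genes. Eya3 was the most abundant Eya gene per length (5.14 CPM per kb, as a mean over libraries), ahead of Eya2 (3.35), Eya1 (0.847) and Eya4 (0.250). Eya2 had 12.2, 10.3 and 8.65 CPM in NKP 1 to 3, 8.63, 9.38 and 7.66 CPM in AKP 1 to 3, and 5.08, 5.32, 7.94 and 7.16 CPM in Ptch 1 to 4. NKP lay above Ptch without overlap, and 15.9% of tested genes had no overlap here in either direction. The log2 fold change of 0.70 (SE 0.197) did not pass (edgeR adjusted p = 0.218).

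Of 10 PDZ-LIM and alpha-actinin genes, 1 rose in AKP against Ptch, where 5.68% of all tested genes were called. Pdlim2, a cytoskeletal PDZ-LIM gene, had 49.2, 52.3 and 43.8 CPM in AKP 1 to 3, against 22.5, 27.0, 24.2 and 23.9 CPM in Ptch 1 to 4. The groups did not overlap, as for 24.8% of tested genes, and the log2 fold change was 0.99 (SE 0.178, edgeR adjusted p = 0.0209). Its adjusted p was 0.115 without AKP 2, 0.0534 without AKP 3, 0.0678 without Ptch 1 and 0.0635 without Ptch 2, with values of 0.93 to 1.06 when any 1 library was left out. The call ended in 9 of 24 alternatives. The value was 1.08 (adjusted p = 0.152) in age-matched libraries and 1.02 (adjusted p = 0.139) without Ptch 1 and Ptch 2. In NKP, Pdlim2 had 53.1, 32.9 and 27.9 CPM, a log2 fold change of 0.63 against Ptch (SE 0.179, adjusted p = 0.218). The alpha-actinin gene Actn4, the most abundant of the list per length, had 75.2 to 91.5 CPM in AKP, 95.1 to 99.5 CPM in NKP and 84.5 to 97.1 CPM in Ptch.

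**Figure D4:**
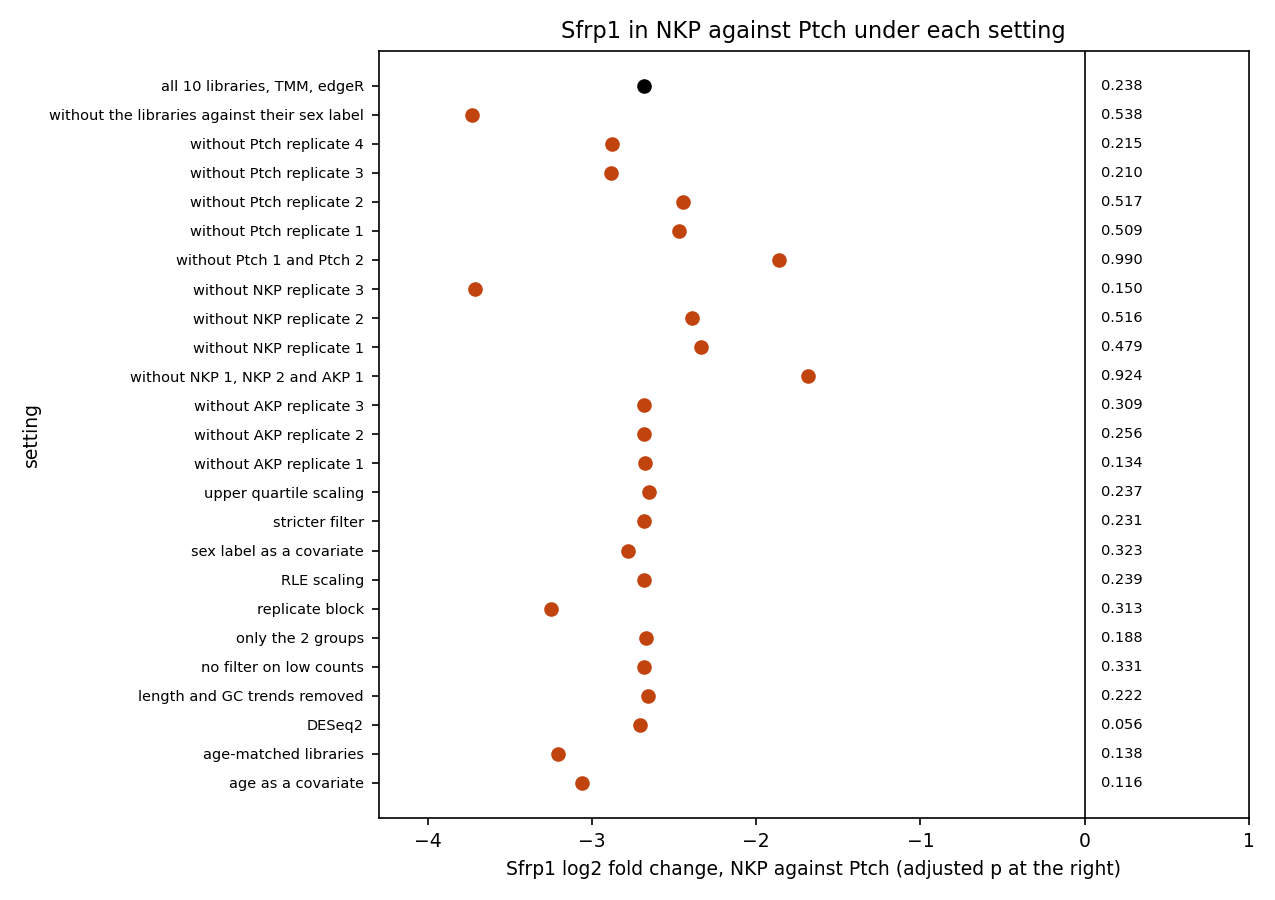
Log2 fold change of Sfrp1 in NKP against Ptch under each setting (points), with the adjusted p at the right; the black point is the fit of all 10 libraries. All 25 values lie below 0, between -3.73 and -1.68, and the smallest adjusted p is 0.0564.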

How the data were processed

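The deposited table holds RSEM expected counts per gene symbol and library, all whole numbers, so rounding before the tests changed no value. Per the submitters' processing notes, the authors used Trim Galore, STAR and RSEM on GRCm38; their versions and the annotation are unstated there. RSEM divides reads among close copies by estimation. The members and gene lists were chosen with earlier results of these data known. Columns were matched to libraries by the library names in the labels. Genes were kept by filterByExpr, scaled by TMM and tested in R 4.3.3 with the robust quasi-likelihood test of edgeR 4.0.16. A single model without covariates took in the 10 libraries and 15617 genes, with Benjamini-Hochberg adjustment over all genes and a threshold of 0.05. CPM uses TMM-scaled totals. The SE is the log2 fold change divided by the square root of F. Log2 CPM used a prior count of 1. Transcript lengths came from GENCODE vM21 (95.6% of tested genes). Named genes were the members, the rest of the SHH panel, their families, up to 2 genes with the smallest p per other list and comparison, and the 5 most alike genes per member; others named, such as Gli1, Gli2, Purkinje sums and genes described across libraries, were chosen after their values were seen. The fit was tested on simulated counts drawn with the same spread for every gene and no sets of libraries. That setting differs from these data, so it does not bear on a gene as variable as Sfrp1. Alternatives were RLE and upper quartile scaling, DESeq2 1.42.0, other filters, only the 2 groups, age or sex label as a covariate, the replicate number as a block, age-matched libraries, without libraries against their sex label, trends with length and GC content removed, and each library left out. Leaving out NKP 1, NKP 2 and AKP 1, or Ptch 1 and Ptch 2, was added after seeing the data.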

Additional observations from a re-analysis of the deposited data

How the results depend on the processing

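No member passed the threshold in any of the 24 alternatives for each comparison. Signs turned only in differences near 0: Eya1 in NKP against Ptch was -0.0429 without Ptch 1 and Ptch 2, and Pdlim3 in NKP against Ptch was -0.37 without NKP 1, NKP 2 and AKP 1. Pdlim3 in AKP against NKP was 0.0336 with age as a covariate, 0.0423 in age-matched libraries and 0.44 without NKP 1, NKP 2 and AKP 1. It ran from -0.27 to 0.12 with each library left out. Without NKP 1, NKP 2 and AKP 1, the only NKP library was NKP 3, the lowest of all for Pdlim3 (2.08 CPM), so -0.37 and 0.44 rest on it. The age-matched value rests on AKP 3 as the only AKP library. What turned the other signs was not tested. Replicate numbers did not pair the libraries (same-numbered correlations from -0.33 to 0.34 over 9 pairs; 4 of 10 libraries correlated best with its own number). With the replicate number as a block, Sfrp1 in NKP against Ptch was -3.25 (edgeR adjusted p = 0.313), and 0 genes were called in AKP against Ptch. Genes called in NKP against Ptch were 0 except with DESeq2 (404), age as a covariate (933) and age-matched libraries (1409). In AKP against Ptch the count was 887, from 0 to 1852 over alternatives. It was 0 without AKP 3, 0 in age-matched libraries and 0 without Ptch 1 and Ptch 2 together. With AKP 2, Ptch 1 or Ptch 2 alone left out it was 1, and with length and GC trends removed it was 16. In AKP against NKP it was 1, from 0 to 1364, the highest without AKP 1, and 246 with DESeq2. DESeq2 gave no adjusted p for Eya1 in AKP against Ptch or AKP against NKP, for Pdlim3 in the same comparisons, or for Sfrp1 in AKP against NKP. Depth limits Eya1 and Pdlim3, with 19 to 90 counts a library.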

Other observations

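Genes of the other medulloblastoma subgroups in the same human panel gave no calls by edgeR in any comparison, among 3 tested of 5 WNT genes, 4 of 5 Group 3 genes and 6 of 6 Group 4 genes. Mab21l2, a Group 3 gene, had 5.89, 6.30 and 11.8 CPM in libraries labelled NKP 1 to 3, 7.73, 16.4 and 17.9 CPM in AKP 1 to 3, and 22.3, 23.4, 19.7 and 17.8 CPM in Ptch 1 to 4. NKP lay below Ptch without overlap (log2 fold change -1.37, SE 0.306, edgeR adjusted p = 0.218), and 15.9% of tested genes had no overlap here in either direction. The low libraries NKP 1, NKP 2 and AKP 1 are those that were low in Sfrp1. Gabra5, a GABA-A receptor subunit gene of Group 3, was highest in AKP 2 and AKP 3, at 9.81 and 8.62 CPM, against 4.36 CPM in AKP 1, with 3.60 to 4.92 CPM in NKP and 2.85 to 5.01 CPM in Ptch (AKP against Ptch 1.01, SE 0.283, edgeR adjusted p = 0.0539). The WNT gene Tnc, which encodes the matrix protein tenascin C, had -0.54 in AKP against Ptch (edgeR adjusted p = 0.146). Kcna1, a potassium channel gene of Group 4, had 227 to 243 CPM in NKP, 166 to 235 CPM in AKP and 178 to 221 CPM in Ptch.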
